A study of Mus musculus with 22 samples.

Results

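In the liver of male mice, 10 genes were picked by symbol because they differed between Slc10a1 knockout (KO) and wild-type (WT) animals at 4 weeks of age and not, or less, at 8 weeks and 20 months. They are Mpv17l, Trdmt1, Dmd, Gnpnat1 and Tstd3, which were higher in the 4-week KO livers, and Plod3, Map3k10, Zfp703, Stom and Sned1, which were lower. They make 10 of the 47729 genes in the count tables, and all 10 passed the filter on low counts at each of the 3 ages. The choice used the KO minus WT differences at every age, so those differences are given below as descriptions with no test of the 10 genes. The choice named no threshold. In a joint test of whether the KO effect differs among the ages, which counts as used by the choice, the 10 genes held ranks 2, 4 to 9 and 11 to 13 of 15877 genes, with 1700086O06Rik, Gm27252 and Actg1 between them and Dync1h1 and Wdr77 next in order.

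Messenger RNA from frozen livers was sequenced in 22 libraries of C57BL/6 males. At 4 weeks there were 3 WT and 3 Slc10a1-/- libraries, at 8 weeks 4 WT and 6 Slc10a1-/-, and at 20 months 3 WT and 3 Slc10a1-/-. No treatment and no other allele is named for any group, and the deleted part of Slc10a1, litters and cages are not given. The p-values below therefore rest on the spread between these libraries.

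Slc10a1 encodes the sodium-taurocholate cotransporting polypeptide, which takes conjugated bile acids from the blood into hepatocytes. The products of the 10 genes work in different places: mitochondria and peroxisomes, RNA methylation, sugar nucleotide synthesis, the cytoskeleton, kinase signalling, transcription, the cell membrane and the extracellular matrix. The 4-week liver is that of a recently weaned, still maturing animal, and in male mice the sex-biased part of the liver's expression takes its adult form during puberty.

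Counts assigned to genes ranged from 5496425 to 6956124 per library at 4 weeks, from 18950112 to 26066897 at 8 weeks and from 18032355 to 26789350 at 20 months. For Slc10a1 itself the genotypes did not overlap at any age, KO being the lower, with 657 ± 58.0 CPM (depth-normalised counts, SD, n = 3) in WT and 168 ± 76.2 (n = 3) in KO at 4 weeks, and log2 fold changes of -1.93, -2.72 and -1.49 at the 3 ages. The hepatocyte markers were the most abundant marker list in every group. Several libraries stood apart from their group. KO library 1 at 4 weeks had a hepatocyte marker score 1.18 log2 units below the WT mean, and KO library 6 at 8 weeks had a skeletal muscle score 6.51 above it. KO libraries 3 and 4 at 8 weeks had male-biased gene scores of 0.72 and 0.82, where the other 4 lay between -6.0 and -5.14. The neutrophil score at 20 months ran from -4.29 to 3.54 among the WT libraries. In these bulk samples, fewer cells of a type and less RNA per cell cannot be told apart.

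Promoter windows of 300 bases, from 250 before to 50 after an annotated start, were found in RefSeq (build GRCm38.p6) for 6 of the 10 genes: Trdmt1, Plod3, Map3k10, Stom, Sned1 and, with 2 starts, Dmd. Those of Plod3, Map3k10, Stom and Sned1 are shown because these genes were all lower in KO at 4 weeks, and those of Dmd because its gene-level count pools products of distant starts. They lie at chr5:136986769-136987068 (plus strand, Plod3), chr7:27674532-27674831 (minus strand, Map3k10), chr2:35336960-35337259 (minus strand, Stom), chr1:93235647-93235946 (plus strand, Sned1), chrX:82948620-82948919 (plus strand, Dmd, first start) and chrX:85048045-85048344 (plus strand, Dmd, inner start), each written 5′ to 3′ on the gene's strand. Capitals mark matches on either strand to the GC box GGGCGG, the CCAAT box CCAAT, the E-box CACGTG and the TATA box TATAAA.
Plod3: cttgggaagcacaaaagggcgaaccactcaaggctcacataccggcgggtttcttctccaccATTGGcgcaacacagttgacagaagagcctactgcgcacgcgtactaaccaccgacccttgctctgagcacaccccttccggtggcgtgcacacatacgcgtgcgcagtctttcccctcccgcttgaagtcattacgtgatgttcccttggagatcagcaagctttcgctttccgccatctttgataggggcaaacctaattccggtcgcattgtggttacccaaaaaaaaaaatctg
Map3k10: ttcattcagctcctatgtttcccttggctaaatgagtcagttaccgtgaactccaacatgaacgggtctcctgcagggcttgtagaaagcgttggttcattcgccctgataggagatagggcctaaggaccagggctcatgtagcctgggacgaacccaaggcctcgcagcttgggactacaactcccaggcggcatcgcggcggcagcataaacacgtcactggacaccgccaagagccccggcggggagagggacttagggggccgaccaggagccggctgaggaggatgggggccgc
Stom: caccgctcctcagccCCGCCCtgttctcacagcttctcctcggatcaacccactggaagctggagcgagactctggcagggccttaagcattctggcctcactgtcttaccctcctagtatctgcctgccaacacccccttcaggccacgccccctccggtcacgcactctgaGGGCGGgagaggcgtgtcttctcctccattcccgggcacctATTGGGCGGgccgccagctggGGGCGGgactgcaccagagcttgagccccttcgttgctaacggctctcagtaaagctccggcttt
Sned1: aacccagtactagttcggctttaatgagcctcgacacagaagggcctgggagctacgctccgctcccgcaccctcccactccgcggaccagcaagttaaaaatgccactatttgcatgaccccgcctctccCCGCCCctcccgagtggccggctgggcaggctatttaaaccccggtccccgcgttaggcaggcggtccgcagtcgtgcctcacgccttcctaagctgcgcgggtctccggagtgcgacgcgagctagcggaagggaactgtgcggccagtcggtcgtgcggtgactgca
Dmd first start: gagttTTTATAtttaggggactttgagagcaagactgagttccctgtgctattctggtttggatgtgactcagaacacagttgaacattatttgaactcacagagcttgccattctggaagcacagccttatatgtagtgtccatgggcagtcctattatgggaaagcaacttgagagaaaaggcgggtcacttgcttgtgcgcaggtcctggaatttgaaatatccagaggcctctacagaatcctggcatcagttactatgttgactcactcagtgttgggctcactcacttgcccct
Dmd inner start: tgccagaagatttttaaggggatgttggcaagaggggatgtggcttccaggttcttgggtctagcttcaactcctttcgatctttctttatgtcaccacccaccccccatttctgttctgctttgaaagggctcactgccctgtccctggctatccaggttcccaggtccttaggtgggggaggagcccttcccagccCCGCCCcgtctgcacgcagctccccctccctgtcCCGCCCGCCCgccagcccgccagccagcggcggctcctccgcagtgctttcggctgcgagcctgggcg

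The Stom window held 4 GC boxes and 1 CCAAT box, the last overlapping a GC box. Sned1 held 1 GC box and Plod3 1 CCAAT box. The 2 Dmd windows differed. The first held 2 CG dinucleotides and 1 match to the TATA box, at base 6 of the window and so far from the start. The inner one held 3 GC boxes and 14 CG dinucleotides. GC boxes were thus in 3 of the 7 windows and CCAAT boxes in 2, where 35.7% and 37.4% of all 32851 mouse windows of this length hold them. The E-box is in 7.15% of all windows and the TATA box in 13.6%. Other motifs searched on both strands were the STAT site TTCNNNGAA (8.3% of all windows), the nuclear receptor sequence AGGTCA (16.3%) and the antioxidant response element core TGACNNNGC (12.4%). Of these, 1 match was found, to TGACNNNGC in Sned1, and the Trdmt1 and Map3k10 windows matched none of the 7 motifs. No motif was in all of the windows of Plod3, Map3k10, Stom and Sned1, and Zfp703, which also fell, had no window. Of the genes that rose only Trdmt1 and Dmd had windows, too few to look for a shared motif. CG dinucleotides numbered 15 in Trdmt1, 19 in Plod3, 17 in Map3k10, 16 in Stom and 29 in Sned1, against a median of 7 over all windows.

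At 4 weeks, 10 of the 10 genes passed an adjusted p of 0.05 in edgeR's quasi-likelihood test, 5 higher and 5 lower in KO, where 10.8% of the 11144 genes tested passed, 5.17% higher and 5.60% lower; since the choice used this contrast, nothing is read from that count. Their absolute log2 fold changes ran from 1.38 to 3.03 with a median of 1.74, beside a median of 0.39 over all genes tested. Leaving out 1 WT library moved the count of the 10 and that of all genes, which was 1200 with every library. Without WT library 3 it was 4 of the 10 (Mpv17l, Trdmt1, Plod3 and Sned1) and 184 of all genes. Without WT library 2 it was 8, Zfp703 and Tstd3 missing, and 234 of all genes. Without WT library 1 or any 1 of the KO libraries it was 10 of the 10. The log2 fold changes kept their direction with any 1 library left out, the smallest in size being -1.25 for Stom. At 8 weeks 0 of the 10 passed (2 at an unadjusted p under 0.05, 0 by DESeq2), where 0.0275% of 14522 genes did (4 genes, with 1517 at an unadjusted p under 0.05 and 107 by DESeq2). At 20 months 0 of the 10 passed (2 at an unadjusted p under 0.05, 0 by DESeq2), and 0 of 13966 genes did (772 at an unadjusted p under 0.05, 43 by DESeq2). At the later ages nearly every gene shares the absence of a call: of 1175 genes called at 4 weeks and tested at all ages, 1174 were not called later. By size, 390 of those had a log2 fold change of at least 1 at 4 weeks and under 0.5 at both later ages, and 8 of the 10 genes were among them; the other two were Trdmt1, at 0.53 at 8 weeks, and Sned1, at 1.10 at 20 months.

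**Figure D1:**
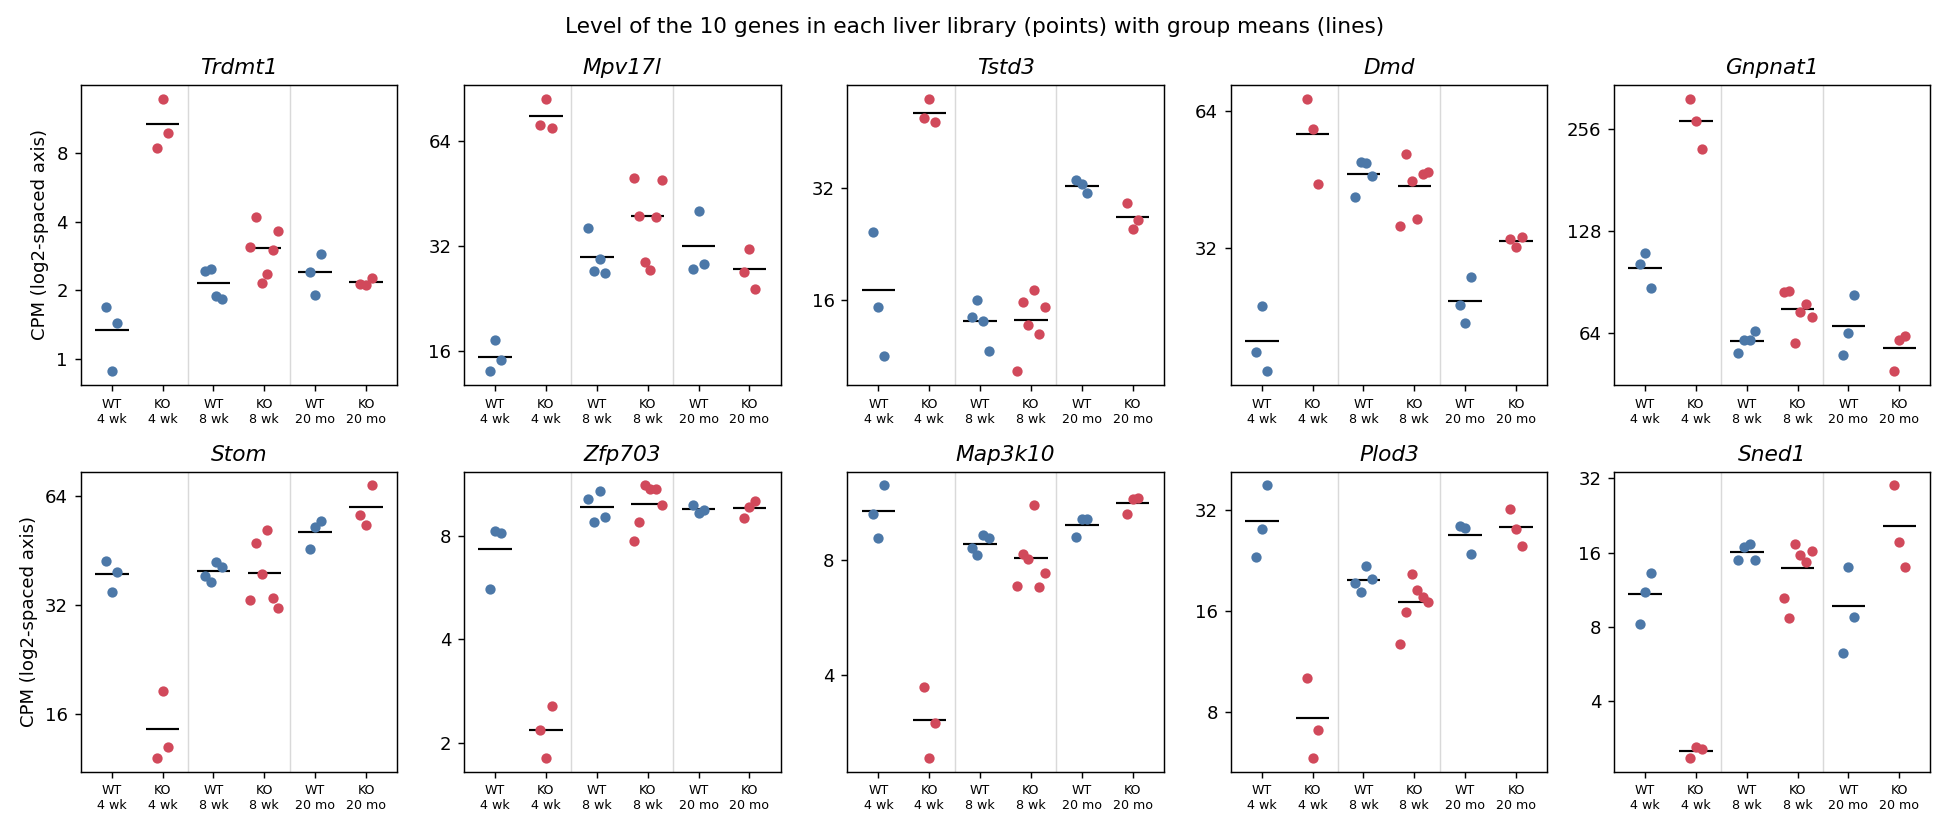
CPM of each of the 10 genes (log2-spaced y axis) in the 22 libraries, by genotype (blue WT, red KO) and age; points are libraries and lines group means. The 4-week KO libraries lie apart from all the other libraries for 9 of the genes, and Dmd is the exception, since its 4-week KO libraries (44.4 to 68.2 CPM) meet the 8-week range.

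Mpv17l encodes an Mpv17-like protein of mitochondria and peroxisomes linked to the handling of reactive oxygen species, and lies on chromosome 16 (GRCm38, 13903161 to 13949619, plus strand). At 4 weeks it stood at 14.0, 17.2 and 15.1 CPM in the WT libraries and at 71.1, 84.5 and 69.8 CPM in the KO libraries. The groups were far apart, with a log2 fold change of 2.32 ± 0.20 (SE), or 4.99-fold. At 8 weeks the WT libraries held 35.9, 27.1, 29.3 and 26.8 CPM, and the KO libraries had a lowest, median and highest value of 27.3, 38.8 and 50.1 CPM. The groups overlapped there, with KO libraries 1, 2, 5 and 6 above every WT library and 3 and 4 inside the WT range. At 20 months the order of the means was turned: WT held 27.4, 40.2 and 28.5 CPM and KO 27.0, 31.3 and 24.1 CPM. The WT mean itself was 15.4 ± 1.64 CPM (SD, n = 3) at 4 weeks and 29.8 ± 4.26 (n = 4) at 8 weeks, so the 4-week KO level of 75.1 ± 8.13 (n = 3) was above the level of both genotypes at every later age.

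Trdmt1 encodes a cytosine methyltransferase that acts on transfer RNA and belongs by sequence to the DNA methyltransferases; it lies on chromosome 2 (13509014 to 13544668, minus strand). At 4 weeks it was at 1.68, 0.878 and 1.43 CPM in WT, from 9, 5 and 9 counts, and at 8.40, 13.9 and 9.82 CPM in KO, from 50, 69 and 46 counts. This was the largest fold of the 10 genes, 3.03 ± 0.36 on the log2 scale, and it rests on few WT counts, since 3 counts equal 0.431 to 0.546 CPM in these libraries. The 8-week WT libraries held 2.43, 2.48, 1.89 and 1.82 CPM, and KO had a lowest, median and highest value of 2.14, 3.05 and 4.19 CPM. As for Mpv17l, KO libraries 1, 2, 5 and 6 were above every WT library, and the log2 fold change was 0.53 with a 95% interval of 0.01 to 1.05. At 20 months the KO libraries lay between 2.10 and 2.25 CPM, inside the WT range of 1.91 to 2.89.

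Gnpnat1 encodes the acetyltransferase that makes N-acetylglucosamine phosphate on the way to UDP-GlcNAc, the sugar donor of glycosylation (chromosome 14, 45376334 to 45404913, minus strand). At 4 weeks it was the most abundant of the 10 per kb of annotated exon, shared bases included. It had 21.0 ± 2.46 CPM per kb (SD, n = 3) in 4-week WT and 57.1 ± 9.73 (n = 3) in 4-week KO livers. The 4-week values were 102, 110 and 86.9 CPM in WT and 316, 271 and 224 CPM in KO, a log2 fold change of 1.48 ± 0.22. At 8 weeks WT held 55.7, 61.1, 60.8 and 64.8 CPM, and KO had a lowest, median and highest value of 59.6, 75.8 and 84.9 CPM. Only KO library 3 fell inside the WT range at 8 weeks, and the log2 fold change of 0.34 had an interval of 0.09 to 0.59. At 20 months it was 55.1, 63.8 and 82.9 CPM in WT and 49.2, 60.8 and 62.7 CPM in KO, with overlapping groups. Of its exon bases, 83.5% are shared with other annotated genes, mainly Styx on the opposite strand, which had 0.342 ± 0.153 CPM (SD, n = 3) in 4-week WT and 0.496 ± 0.247 (n = 3) in KO.

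Tstd3, a gene with a thiosulfate sulfurtransferase-like (rhodanese) domain, lies on chromosome 4 (21757382 to 21767212, minus strand). Its 4-week values were 24.4, 15.3 and 11.3 CPM in WT and 49.2, 55.5 and 48.0 CPM in KO, a log2 fold change of 1.62 ± 0.29. The WT libraries were widely spread, and without WT library 1 the log2 fold change was 1.98. The 8-week WT libraries held 14.4, 16.0, 14.1 and 11.7 CPM, and KO had a lowest, median and highest value of 10.3, 14.5 and 17.0 CPM, which enclosed the WT range. At 20 months the groups were apart in the other direction, at 33.5, 32.8 and 30.9 CPM in WT and 29.1, 24.8 and 26.3 CPM in KO. Tstd3 shares 21.0% of its exon bases with the opposite-strand genes Ccnc and Usp45. Ccnc rose at 4 weeks too, from 18.2 ± 3.53 CPM to 31.3 ± 3.03 (SD, n = 3 each; log2 fold change 0.82, edgeR adjusted p 0.0439), while Usp45 had a log2 fold change of -0.29 (adjusted p 0.36).

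Dmd encodes dystrophin, which ties the actin cytoskeleton to a membrane complex in muscle and is also made in shorter forms in other tissues; it spans chromosome X from 82948870 to 85206141 (plus strand). The 4-week values were 19.0, 23.9 and 17.2 CPM in WT and 68.2, 58.5 and 44.4 CPM in KO, a log2 fold change of 1.55 ± 0.23. At 8 weeks both genotypes overlapped the range of the 4-week KO libraries, with 41.4, 49.6, 49.2 and 46.1 CPM in WT and a lowest, median and highest value of 35.8, 45.8 and 51.5 CPM in KO. At 20 months KO was again above WT in every library, at 33.6, 32.2 and 33.9 CPM against 24.0, 22 and 27.7 CPM, a log2 fold change of 0.44 with an interval of 0.08 to 0.79. That interval is unadjusted and the edgeR adjusted p was 0.821. Neither an effect of KO on Dmd at 20 months nor its absence is read from these values. Skeletal muscle markers summed to 1.05 to 2.79 CPM in the 4-week WT and 1.01 to 2.99 CPM in the 4-week KO libraries, with Acta1 and Myh4 at 0 counts. The muscle-marked KO library 6 at 8 weeks had 47.1 CPM of Dmd, inside the WT range. The counts do not separate the first from the inner start of the gene.

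Among the genes that were lower, Sned1 and Plod3 act on the extracellular matrix. Sned1 encodes a secreted matrix glycoprotein (chromosome 1, 93235841 to 93301065, plus strand). It stood at 8.19, 11.1 and 13.2 CPM in 4-week WT and at 2.35, 2.61 and 2.56 CPM in KO, from 14, 13 and 12 counts, a log2 fold change of -2.06 ± 0.29. At 8 weeks WT held 14.9, 16.9, 17.4 and 14.9 CPM, and KO had a lowest, median and highest value of 8.71, 15.2 and 17.3 CPM, with libraries 1, 2 and 5 below the WT range. At 20 months the difference had the opposite sign: WT held 6.28, 14.0 and 8.78 CPM and KO 30.0, 17.6 and 14.0 CPM. KO was higher there by 1.10 ± 0.39 on the log2 scale, with an unadjusted interval of 0.17 to 2.02, and by 0.70 without KO library 1. The edgeR adjusted p was 0.821, so neither an effect of KO on Sned1 at 20 months nor its absence is read from these values. It shares 19.6% of its exon bases with other genes, mainly the opposite-strand Mterf4, whose 4-week log2 fold change was -0.39 (edgeR adjusted p 0.264).

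Plod3 encodes a lysyl hydroxylase that also adds sugars to collagen (chromosome 5, 136987019 to 136996648, plus strand). At 4 weeks the values were 23.3, 28.1 and 38.0 CPM in WT and 10.1, 5.83 and 7.05 CPM in KO, a log2 fold change of -1.91 ± 0.28. The 8-week WT libraries held 19.4, 18.3, 21.8 and 19.9 CPM, and KO had a lowest, median and highest value of 12.8, 17.3 and 20.7 CPM. KO libraries 1, 2, 5 and 6 were below every WT library, while 3 and 4 were inside the WT range. At 20 months WT held 28.8, 28.4 and 23.7 CPM and KO 32.2, 28.1 and 25.1 CPM, with overlapping groups. The gene shares 11.9% of its exon bases with others, mainly Znhit1 on the opposite strand, at 18.1 ± 1.40 CPM in 4-week WT and 12.5 ± 1.93 in KO (SD, n = 3 each; edgeR adjusted p 0.145).

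Map3k10 encodes a mixed-lineage kinase upstream of the JNK stress kinases (chromosome 7, 27656375 to 27674598, minus strand). Its 4-week values were 10.6, 9.13 and 12.6 CPM in WT and 3.70, 2.41 and 2.99 CPM in KO, a log2 fold change of -1.78 ± 0.28. At 8 weeks WT held 8.60, 8.28, 9.30 and 9.15 CPM, and KO had a lowest, median and highest value of 6.81, 7.72 and 11.2 CPM, which enclosed the WT range. At 20 months every KO library (10.6, 11.6 and 11.7 CPM) was above every WT library (9.20, 10.3 and 10.3 CPM) by a log2 fold change of 0.19, with an interval of -0.21 to 0.58. The opposite-strand gene Ttc9b, which accounts for the 14.8% of its exon bases that are shared, had 0 counts in all 4-week libraries.

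Stom encodes stomatin, a membrane protein first known from red blood cells (chromosome 2, 35313986 to 35336976, minus strand). At 4 weeks the values were 42.4, 34.8 and 39.6 CPM in WT and 12.1, 18.5 and 13.0 CPM in KO, a log2 fold change of -1.38 ± 0.22. Erythroid markers summed to 328 to 455 CPM in the 4-week WT and 144 to 197 CPM in the 4-week KO libraries, with 3 of the 4 tested markers lower and 1 higher. Their mean log2 score, relative to the WT mean of the age, overlapped, at -0.35 to 0.18 in WT and -1.05 to -0.03 in KO. In 8-week KO libraries 1 to 6 the score was 1.67, 1.47, -0.70, -0.14, 0.05 and 1.62. Stom stood there at 33.1, 47.4, 39.0, 51.6, 33.5 and 31.4 CPM. The part of these markers in the difference was not tested. The 8-week WT libraries held 38.6, 37.1, 42.0 and 40.8 CPM, and KO had a lowest, median and highest value of 31.4, 36.3 and 51.6 CPM, which enclosed the WT range. At 20 months WT held 45.6, 52.5 and 54.6 CPM and KO 56.8, 53.3 and 68.5 CPM, with overlapping groups.

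Zfp703 encodes a zinc finger protein that represses transcription (chromosome 8, 26977325 to 26981461, plus strand). It was at 5.59, 8.25 and 8.12 CPM in 4-week WT and at 2.18, 1.81 and 2.56 CPM in KO, from 13, 9 and 12 counts, a log2 fold change of -1.70 ± 0.31. At the later ages its genotypes were close, with log2 fold changes of 0.04 and 0.01. WT held 10.2, 8.77, 10.8 and 9.07 CPM at 8 weeks, where KO had a lowest, median and highest value of 7.73, 10.3 and 11.2 CPM. All 6 libraries at 20 months lay between 9.02 and 10.1 CPM. The 95% intervals still allow a difference of up to 0.32 at 8 weeks and 0.41 at 20 months on the log2 scale.

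**Figure D2:**
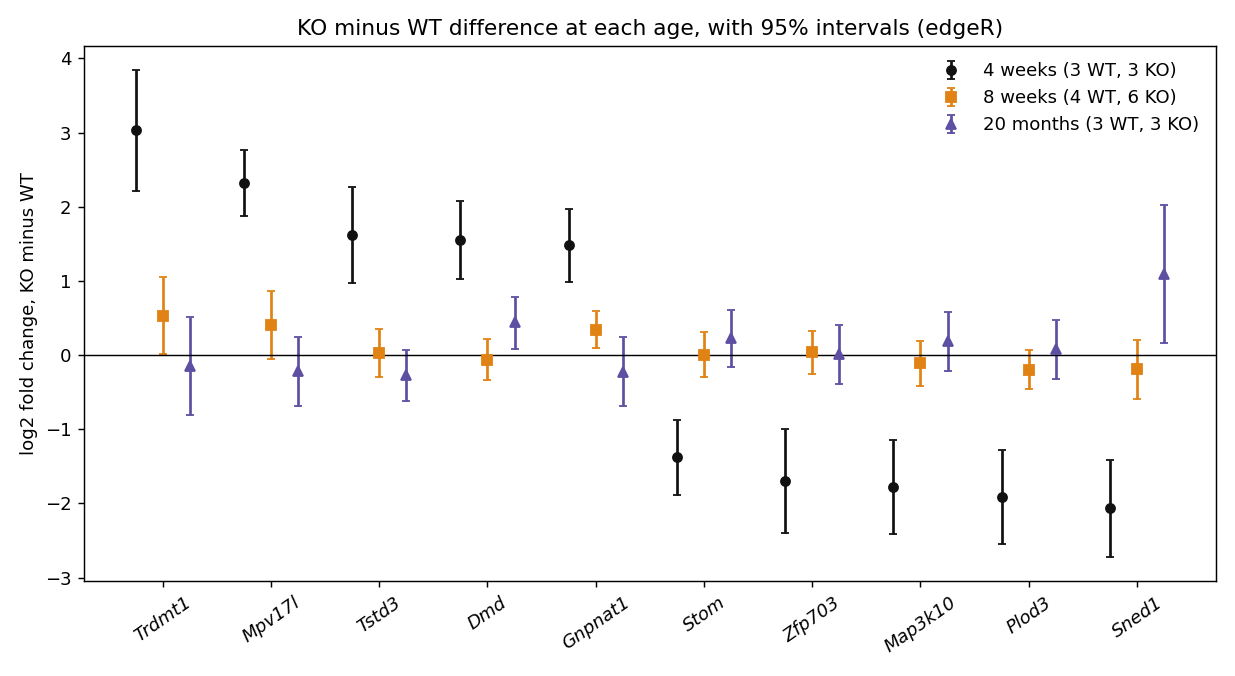
KO minus WT log2 fold change of each gene at 4 weeks (black), 8 weeks (orange) and 20 months (purple), with 95% intervals from edgeR. All 10 intervals at 4 weeks lie away from 0. At 8 weeks those of Trdmt1 (0.01 to 1.05) and Gnpnat1 (0.09 to 0.59) also leave it out. So do those of Dmd (0.08 to 0.79) and Sned1 (0.17 to 2.02) at 20 months. No interval is adjusted for the number of genes tested.

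Across the genes, the KO libraries at 4 weeks lay outside the range of all 19 other libraries for 9 of the 10, where 7.75% of 15877 genes did so; as these contrasts chose the genes, nothing is read from that count. Groups did not overlap at 4 weeks for 10 of the 10 (35.5% of all genes tested), at 8 weeks for 0 (2.25%) and at 20 months for 4 (10.2%), namely Map3k10, Dmd and Sned1, higher in KO (5.64% of all genes), and Tstd3, lower in KO (4.60%). The sign of the 8-week difference matched that at 4 weeks for 7 of the 10, as it did for 90.4% of the genes called at 4 weeks. At 20 months it matched for 1 of the 10, Dmd, and for 35.5% of the genes called at 4 weeks. The joint test called 10 of the 10 where 1.62% of 15877 genes passed, another contrast from which nothing is read. Levels set side by side across ages also differ in layout, paired-end at 4 weeks and single-end later by the names of the tables.

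The liver's sex-biased genes separated the genotypes at 4 weeks and split the KO libraries at 8 weeks. A score over 20 male-biased genes, such as Elovl3 and Mup20, was -3.88, -4.55 and -4.16 in the 4-week KO libraries, in mean log2 CPM relative to the WT mean of the age. At 8 weeks it was -5.64, -5.84, 0.72, 0.82, -5.14 and -6.0 in KO libraries 1 to 6, where the WT libraries lay between -0.27 and 0.27, and at 20 months 0.19, 0.55 and -0.18. Of the 20 genes, 16 of 19 tested were called lower at 4 weeks, and 0 of 20 were called at 8 weeks. Each score is relative to the WT of its own age, where the male-biased genes summed to 12221 to 19582 CPM at 4 weeks and 19973 to 24819 CPM at 8 weeks. Scores of different ages are therefore not on a common scale. In the 8-week KO libraries 1, 2, 5 and 6 Mpv17l was 38.7 to 50.1 CPM and Plod3 12.8 to 17.6 CPM, and Zfp703 was 7.73 to 10.9 CPM. Library by library, Mpv17l, Trdmt1 and Plod3 were beyond the WT range in the 4-week direction in exactly libraries 1, 2, 5 and 6, and Gnpnat1 in those and library 4. Map3k10 was so in libraries 1, 3, 5 and 6, Stom in 1, 5 and 6, Sned1 in 1, 2 and 5, and Zfp703 in 1 and 2. For Dmd it was library 2 alone, and for Tstd3 library 4 alone. The part of this state in the 4-week differences was not tested.

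**Figure D3:**
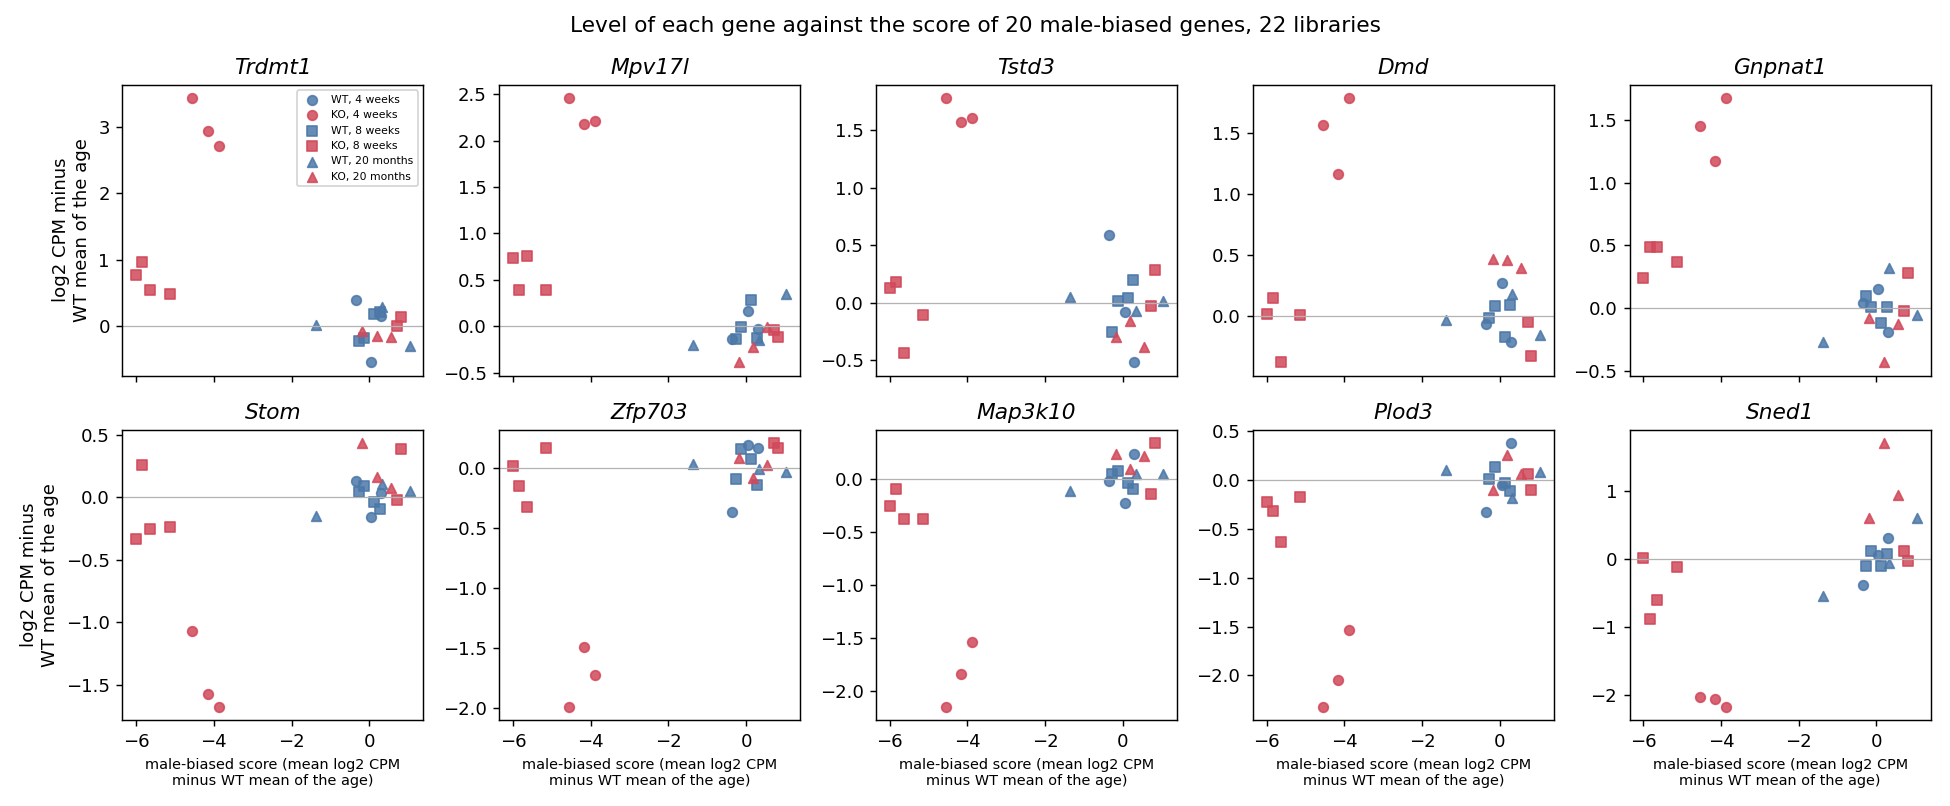
Log2 CPM of each gene minus the WT mean of its age (y axis) against the score of 20 male-biased genes (x axis, mean log2 CPM minus the WT mean of the age), in 22 libraries; colour gives the genotype and shape the age. The 4-week KO libraries are red circles, with scores from -4.55 to -3.88. Red squares are the 8-week KO libraries, including those with scores from -6.0 to -5.14. Each score is relative to the WT of its own age, so scores of different ages are not on a common scale.

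Other features of the 4-week livers differed between the genotypes as well. The share of reads outside genes was 7.77% to 9.65% in KO and 6.13% to 6.92% in WT. Summed markers of Kupffer cells were 454 to 687 CPM in KO and 757 to 914 CPM in WT; of the 10, 3 were called lower (Clec4f, Csf1r and Timd4) and Marco was called higher, from 20.9 ± 3.53 to 126 ± 50.7 CPM (SD, n = 3 each; edgeR adjusted p 0.00325). Endothelial markers summed to 210 to 285 CPM in KO and 334 to 407 CPM in WT, with 3 of 8 called lower. Cholangiocyte markers summed to 17.1 to 26.5 CPM and 34.9 to 40.6 CPM, mostly from Spp1 (adjusted p 0.0708), while the mean log2 score of the list overlapped between the genotypes. Lymphocyte markers summed to 2.21 to 3.84 CPM in KO and 5.73 to 8.08 CPM in WT. Of these 7 markers 0 passed the filter on low counts, and Cd3e went the other way, from 0.345 CPM in WT to 1.08 CPM in KO. Stellate cell markers moved both ways: Dcn rose from 178 ± 20.4 to 337 ± 41.4 CPM (adjusted p 0.0237) and Col3a1 fell from 56.9 ± 15.6 to 11.5 ± 10.3 CPM (SD, n = 3 each; adjusted p 0.0341), and the sums of the list overlapped, at 347 to 496 CPM in KO and 280 to 371 CPM in WT. The sums of hepatocyte, smooth muscle, skeletal muscle and neutrophil markers overlapped too, with Elane at 0. The part of these in the differences of the 10 genes was not tested.

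Relatives of each gene, 87 in 10 lists of family members and pathway partners, give the setting. Of 67 tested at 4 weeks, 5 were called, 1 higher and 4 lower, or 7.46% beside 10.8% of all genes tested, and their median log2 fold change was -0.12 beside 0.005 over all genes. At 8 weeks 0 of 75 and at 20 months 0 of 74 were called by edgeR (7 and 1 at an unadjusted p under 0.05). The number called at 4 weeks moved with single libraries, as did that of all genes. Leaving out WT library 2, WT library 3 or KO library 3 gave 0 called relatives. Leaving out WT library 1 gave 1, and leaving out KO library 1 gave 9.

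In the collagen modification list, which is that of Plod3, 2 of 11 tested genes were called, both lower: Serpinh1, the collagen chaperone, fell from 12.0 ± 3.93 CPM to 3.75 ± 0.354 (SD, n = 3 each; log2 fold change -1.64 ± 0.31, edgeR adjusted p 0.0169), and P4ha1, a prolyl hydroxylase subunit, fell by 1.35 ± 0.33 on the log2 scale (adjusted p 0.0388). Of the collagen genes themselves, in the stellate cell list, Col3a1 fell by 2.27 on the log2 scale (adjusted p 0.0341) and Col1a1 had -2.09 (adjusted p 0.116, not called), and their part in the differences of Plod3, Serpinh1 and P4ha1 was not tested. The other lysyl hydroxylases had log2 fold changes of -0.49 for Plod1 (adjusted p 0.179) and 0.09 for Plod2 (0.91). In the JNK list of Map3k10, 1 of 14 was called, the scaffold Mapk8ip1, which rose from 0.803 ± 0.247 to 4.25 ± 1.93 CPM (SD, n = 3 each; log2 fold change 2.41 ± 0.49, edgeR adjusted p 0.0207). Among the cytosine methyltransferases, the relatives of Trdmt1, 1 of 8 was called: Dnmt1, the maintenance DNA methyltransferase, fell from 9.97 ± 0.0875 to 5.11 ± 0.763 CPM (SD, n = 3 each; edgeR adjusted p 0.043), a call lost with DESeq2 (adjusted p 0.0565), with all genes of at least 1 count (0.0578) and without any 1 of the 6 libraries (0.0522 to 0.154). Around Gnpnat1, 1 of 11 genes of UDP-GlcNAc synthesis and use was called, Uap1l1, which fell by 1.00 on the log2 scale (adjusted p 0.0367), while Gfpt1, which makes the pathway's first step, had 0.47 (0.214) and Uap1, the last step, 0.31 (0.309).

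Of the remaining lists none had a called gene at 4 weeks. In the dystrophin complex list, 0 of 9 tested were called: the largest log2 fold change was -0.73 for Lama2 (edgeR adjusted p 0.217), and Utrn, the dystrophin homologue, had -0.32 (0.264). The Mpv17 family had 0 of 3, with Mpv17l2 at 0.86 (adjusted p 0.0544), Mpv17 at -0.50 (0.311) and Pxmp2 at 0.44 (0.226). The rhodanese family had 0 of 4, with Tstd1 at 0.98 (adjusted p 0.0824), Mpst at -0.60 (0.165), Tst at -0.29 (0.527) and Tstd2 at -0.24 (0.535). The stomatin family had 0 of 4, with Stoml2 at -0.41 (adjusted p 0.193), Stoml1 at 0.30 (0.742), Phb at -0.20 (0.661) and Phb2 at 0.30 (0.329). The proteins that share the NIDO domain with Sned1 had 0 of 3, with Nid2 at -1.01 (adjusted p 0.106). Zfp503, the nearest relative of Zfp703, was too low to be tested, at 2.33 ± 1.77 CPM in WT and 1.54 ± 0.0617 in KO (SD, n = 3 each). Whether any of the 10 genes moved more than its relatives was not tested.

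**Figure D4:**
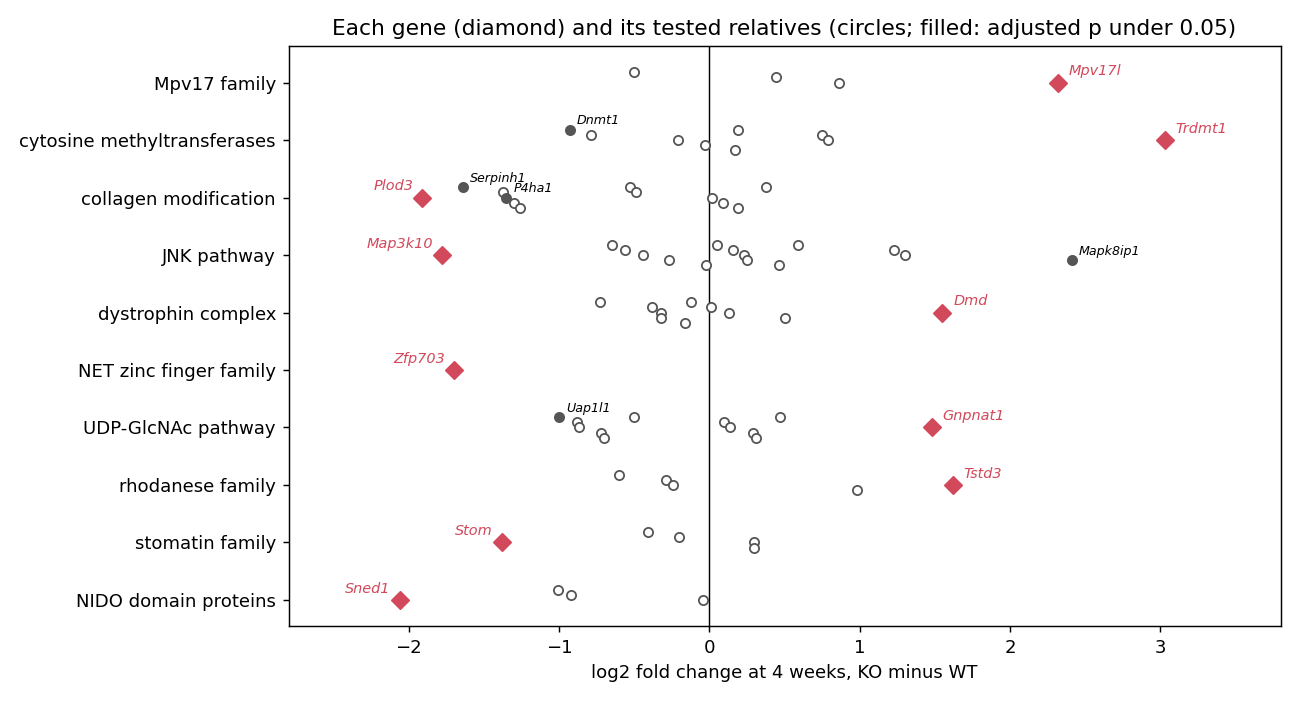
Log2 fold change at 4 weeks (x axis, KO minus WT) of each of the 10 genes (red diamonds) and of the tested genes of its list (circles, filled where the adjusted p was under 0.05; y axis, the lists). The 5 filled circles are Mapk8ip1, at 2.41, and Dnmt1, P4ha1, Serpinh1 and Uap1l1, from -1.64 to -0.93.

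Between 8 weeks and 20 months each gene was compared by its mean over the libraries of both genotypes, which leaves out the 4-week levels. The 4-week libraries still entered the filter and the spread of the fit. The choice also drew on the joint test of the same fit and on KO minus WT differences at these ages. The p-values of this contrast are thus not free of the choice. In that contrast 5 of the 10 genes passed the adjusted threshold in edgeR, 4 higher and 1 lower, a share near the 60.8% of all 15877 genes (32.0% higher and 28.8% lower). The libraries also differed in reads outside genes, 13.91% to 17.78% at 8 weeks and 7.0% to 14.72% at 20 months. Ambiguous reads were 5.28% to 7.3% and 3.8% to 4.59%, and age cannot be told apart from sequencing run. Tstd3 rose from a mean of 14.1 to 29.5 CPM (log2 fold change 1.05 ± 0.13, adjusted p 7.87e-07), Plod3 from 18.2 to 27.7 CPM (0.60 ± 0.12, adjusted p 2.30e-04) and Stom from 39.5 to 55.2 CPM (0.47 ± 0.12, adjusted p 0.00153). The rise of Map3k10, from 8.39 to 10.6 CPM (0.33 ± 0.12, adjusted p 0.0188), no longer passed without KO library 3 at 20 months (adjusted p 0.0511). Dmd fell from 45.0 to 28.9 CPM, by 0.66 ± 0.11 on the log2 scale (adjusted p 3.20e-05). These 5 directions were the same in WT and KO libraries taken alone, but in WT alone 3 of the calls were lost: Plod3 (0.44, adjusted p 0.0521), Stom (0.36, adjusted p 0.0974) and Map3k10 (0.16, adjusted p 0.459). The others did not pass, with log2 fold changes of -0.25 for Mpv17l, -0.24 for Trdmt1, -0.16 for Gnpnat1, -0.06 for Sned1 and -0.04 for Zfp703. In KO alone Mpv17l (-0.52, adjusted p 0.0339) and Gnpnat1 (-0.40, adjusted p 0.0364) passed. The value of Mpv17l also passed without KO library 4 at 8 weeks (-0.31, adjusted p 0.0494) or WT library 2 at 20 months (-0.35, adjusted p 0.0446), and that of Sned1 was -0.73 in WT alone (adjusted p 0.0413) and changed sign without WT library 1 (0.13) or 3 (0.07) at 20 months.

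The contrasts with 4 weeks contain the WT and KO libraries whose difference chose the genes. In KO, a gene picked as lower therefore tends to rise afterwards and one picked as higher to fall, and in WT the reverse. No test of the 10 genes is drawn from these contrasts, in both genotypes together or in either alone. From 4 to 8 weeks 8 of the 10 passed (52.1% of all genes; 28.2% higher and 23.9% lower), and from 4 weeks to 20 months 7, 5 higher and 2 lower (42.2%; 24.2% higher and 18.0% lower), counts from which nothing is read. In WT libraries alone 4 and 3 of the 10 passed, beside 5239 and 3212 of all 15877 genes. Nothing is read from these counts either. As a description, from 4 to 8 weeks the WT level of Mpv17l moved by 0.91 on the log2 scale and the KO level by -1.01, and for Trdmt1 the pair was 0.66 and -1.86. For Dmd the WT value was 1.18 and the KO value -0.44. Gnpnat1 had -0.75 and -1.90, and Tstd3 -0.31 and -1.91. Among the genes lower in 4-week KO, the WT and KO values were 0.53 and 2.40 for Sned1, 0.37 and 2.11 for Zfp703, -0.01 and 1.37 for Stom, -0.32 and 1.34 for Map3k10 and -0.62 and 1.09 for Plod3. In 9 of the 10 genes the KO level moved by more than the WT level, Dmd being the exception. Age here cannot be told apart from library layout and sequencing run. The median of all genes shifted by 0.115 from 4 to 8 weeks, by 0.048 from 8 weeks to 20 months and by 0.142 over the whole span.

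Correlations among the 10 genes over all libraries follow from how they were chosen. After the mean of each age was subtracted, the 20 pairs of genes with the same 4-week direction had a median Pearson r of 0.80 over 22 libraries, and the 25 pairs with opposite directions -0.84. Over the libraries of 8 weeks and 20 months alone the medians were 0.21 and -0.21, and within groups 0.20 and -0.23. These points share library, depth and genotype, and the first medians are set by the contrast that chose the genes and their directions.

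For each gene, the most similar gene outside the 10 was sought by the same measure, with predicted-gene names left out. Each gene found was among those called at 4 weeks, the contrast that also chose the 10. Pairs within the 10 with the same 4-week direction had r up to 0.94 themselves. Cyp20a1 was nearest to both Mpv17l (r = 0.94 over 22 libraries and 0.73 over the 16 without the 4-week ones) and Trdmt1 (0.92 and 0.69). The nearest to Plod3 was Mboat7 (0.93 and 0.76), to Map3k10 Mospd3 (0.92 and 0.81), to Sned1 Dync1h1 (0.91 and 0.84) and to Stom Anxa4 (0.92 and 0.63). For Gnpnat1 it was Abca6 (0.92 and 0.56), for Tstd3 Hlcs (0.90 and 0.47), for Dmd Rab11fip2 (0.92 and 0.45) and for Zfp703 Ptdss1 (0.90 and 0.35). Without the 4-week libraries the r dropped most for Zfp703, Dmd and Tstd3 and least for Sned1 and Map3k10, over points that share library, depth and genotype. Cyp20a1 had 6.59 ± 0.496 CPM in 4-week WT and 15.9 ± 3.27 in KO, and Dync1h1 114 ± 4.22 and 59.6 ± 9.59 (SD, n = 3 each).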

How the data were processed

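The deposited tables hold raw counts of reads per gene for 22 liver libraries; per the submitters' processing notes, HISAT2 2.0.4, HTSeq 0.6.1p1 and the build GRCm38 were used. The annotation release, read filters and strand setting are not given in the sources used here. The labels' protocol names no step that marks strand. Whether reads in bases shared with an opposite-strand gene were counted for a gene or set aside as ambiguous is therefore not known. HTSeq's summary lines were left out: reads outside genes were 6.13% to 17.78% and ambiguous reads 3.8% to 7.3%. GENCODE M21 gave symbols to 47310 of 47729 gene IDs and left 419 without.

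Each age was fitted alone in edgeR 4.0.16 (R 4.3.3) with filterByExpr, TMM scaling and the quasi-likelihood F-test, Benjamini-Hochberg adjusted over all genes tested; a call is an adjusted p under 0.05. The joint test and the age means came from 1 fit of 22 libraries, each age mean weighting WT and KO by their number of libraries. The SE is the absolute log2 fold change divided by the square root of F. CPM used TMM library sizes, and log2 CPM a prior count of 2. The script was tested on simulated counts. Intervals and floors cover counting error only where they come from counts. The 10 genes and all lists were chosen with earlier results of these data known. Named were the 10 genes, the most similar gene to each (mean log2 CPM of at least 1), called relatives or, in a list without one, the relative with the largest change, direct family relatives and Slc10a1; Plod1, Plod2, Utrn, Gfpt1, Uap1, opposite-strand partners and the cell markers named were added after their values were seen. Alternatives were DESeq2 1.42.0, RLE size factors, a filter of 1 count, a robust fit, the replicate block, the fit of 22 libraries, each genotype alone and each library left out.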

Additional observations from a re-analysis of the deposited data

Results flagged for a closer look

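Map3k10 had 1 KO library at 8 weeks, library 4, at 11.2 CPM, which was separated from the other 5 by more than Dixon's 95% critical value. It was 1 of 20 groups of 4 or more libraries examined for the 10 genes, and chance marks about 1 group in 20.

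The KO effect at 4 weeks minus that at 8 weeks was away from 0 for all 10 genes, as their choice fixes, and no test of it is given. On the log2 scale it was 1.92 for Mpv17l, 2.52 for Trdmt1, 1.62 for Dmd, 1.15 for Gnpnat1 and 1.60 for Tstd3, and -1.71 for Plod3, -1.67 for Map3k10, -1.74 for Zfp703, -1.39 for Stom and -1.88 for Sned1. Ccnc, which overlaps Tstd3 on the opposite strand, also differed among the ages (edgeR joint test, adjusted p 0.0321).

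Reads outside genes, which enter no comparison, made up at least 7.77% in every 4-week KO library, above every 4-week WT library (6.13% to 6.92%).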

How the results depend on the processing

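Under every alternative run, 0 of the 10 genes were called at 8 weeks and at 20 months. At 4 weeks 10 were called in each except when WT library 2 or 3 was left out, with a range of 4 (without WT library 3) to 10; Mpv17l, Trdmt1, Plod3 and Sned1 were called in all 12 settings. With DESeq2, 43 genes were called at 20 months, 107 at 8 weeks and 1208 in the joint test. With all genes of at least 1 count, 2048 genes and 9 relatives were called at 4 weeks. In WT libraries alone the age means gave 5239 genes (8 against 4 weeks) and 3212 (20 months against 4 weeks), and 4, 3 and 3 of the 10 genes were called for 8 against 4 weeks, 20 months against 8 weeks and 20 months against 4 weeks.

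Leaving out 1 library gave 184 (WT library 3) to 2012 (KO library 1) genes at 4 weeks and 1 to 5 at 8 weeks. It gave 0 to 71 (WT library 3) at 20 months and 26 (WT library 3 at 4 weeks) to 1081 (WT library 3 at 20 months) in the joint test, where the 10 genes stayed at 10. Relatives called ran from 0 to 9.

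From 4 to 8 weeks directions turned in WT alone for Trdmt1 (0.66), Map3k10 (-0.32), Stom (-0.01), Plod3 (-0.62) and Mpv17l (0.91). In KO alone the direction turned for Dmd (-0.44). Over both genotypes Plod3 (0.21) and Mpv17l (-0.01) had not passed, and they were followed only in each genotype alone. From 8 weeks to 20 months directions turned for Gnpnat1 (0.15), Mpv17l (0.10) and Trdmt1 (0.15) in WT alone. That of Sned1 turned in KO alone (0.56), without WT library 1 (0.13) and without WT library 3 (0.07) at 20 months. The cause was not tested.

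The replicate block left 537 genes at 4 weeks, 0 at 8 weeks and 7 in the joint test, with 10 of the 10 genes at 4 weeks, 2 in the joint test and 1 relative at 4 weeks. The numbers do not pair the libraries: same-numbered WT and KO libraries had correlations between -0.07 and 0.01 (4 weeks), between -0.33 and 0.07 (8 weeks) and between 0.03 and 0.46 (20 months), and no age had every library best matched to its own number. At 4 weeks 3 counts equal 0.431 to 0.546 CPM, which limits the precision of Trdmt1 in WT and of Sned1, Zfp703 and Map3k10 in KO.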
